A study of Mus musculus with 4 samples.

Results

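The creatine and adenine nucleotide enzymes of the mouse ventricle were followed through 9 genes, which were the rows of the deposited expression table under the symbols Ckm, Ckb, Ckmt2, Slc6a8, Gamt, Ak1, Ampd3, Adssl1 and Adss. The 9 rows stood among 23847 rows with 23352 gene symbols. Ventricles came from male mice on the C57BL/6 background, 21 days after birth, and their poly(A) RNA was sequenced. One group carried a transgene that overexpresses Cdk8 specifically in the heart (Cdk8Tg, 2 libraries), and the other was wild type (WT, 2 libraries). Cdk8 encodes a cyclin-dependent kinase of the Mediator complex, through which transcription factors act on RNA polymerase II. The sources used here name neither the transgene's promoter nor its founder lines, nor whether each library is a separate animal, so the p-values describe the spread between libraries, which may be technical.

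Heart muscle keeps its ATP level steady by moving high-energy phosphate on creatine. Mitochondrial creatine kinase charges creatine with phosphate from fresh ATP, and cytosolic creatine kinase gives the phosphate back to ADP near the myofibrils and ion pumps. Adenylate kinase turns a pair of ADP into ATP and AMP. AMP deaminase converts AMP to IMP, and adenylosuccinate synthetase takes the first step from IMP back to AMP. With adenylosuccinate lyase, the deaminase and the synthetase form the purine nucleotide cycle. The brain-type cytosolic isoform Ckb is known from the embryonic heart, where it precedes the muscle isoform Ckm.

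Levels are FPKM, fragments counted per gene and scaled for transcript length and library depth, as the authors deposited them. Spacing of low FPKM values gave depths of 13.5 and 13.1 M (mega) fragments for Cdk8Tg and 15.4 and 15.5 M for WT. That holds if the authors scaled each library by its own fragments, a step the sources used here leave unstated. Cdk8 itself reached 7309 and 8122 FPKM in Cdk8Tg, against 7.89 and 9.86 FPKM in WT. Of 8 ventricular cardiomyocyte markers, 8 had a row and 6 fell (limma, adjusted p under 0.05), beside 7.98% of all rows tested. Their summed level was 38826 and 36973 FPKM in Cdk8Tg, against 57841 and 55449 FPKM in WT. Of 5 fibroblast markers 4 rose, beside 16.9% of all rows tested, with sums of 669 and 851 FPKM in Cdk8Tg and 553 and 529 FPKM in WT. Cdk8Tg replicate 2 alone held Ucp1, a brown fat gene, at 10.7 FPKM, while Ucp1 was listed at 0 in the other libraries. That library also had the highest sum of the 5 smooth muscle markers, 738 FPKM beside 437 FPKM in Cdk8Tg replicate 1 and 354 and 357 FPKM in WT. Of 10 marker lists, the atrial myocyte list had the widest ratio between libraries, with sums of 872 and 2429 FPKM in Cdk8Tg and 685 and 242 FPKM in WT. Of 5 tested 1 rose, beside 16.9% of all rows tested, and Bmp10 was listed at 0 in all 4 libraries. Nppa stood at 780 and 2072 FPKM in Cdk8Tg, against 395 and 199 FPKM in WT, while Myl7 was highest in WT replicate 1, at 8.51 and 52.7 FPKM in Cdk8Tg, against 136 and 11.6 FPKM in WT. The part of atrial tissue in the results was not tested.

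In the Cdk8Tg ventricles the brain-type creatine kinase gene rose about 4-fold, while the muscle creatine kinase, the mitochondrial creatine kinase, the main cytosolic adenylate kinase and the muscle adenylosuccinate synthetase genes fell to between 52.9% and 70.2% of their WT means. The creatine transporter, the creatine-synthesising methyltransferase, AMP deaminase 3 and the general adenylosuccinate synthetase did not pass the test. All 9 genes were expressed at a mean of at least 1 FPKM over the 4 libraries and so were tested. With limma on log2(FPKM + 1) and Benjamini-Hochberg adjusted p under 0.05 over 11888 rows, 1 of the 9 rose, beside 16.9% of all rows tested, and 4 of the 9 fell, beside 7.98% of all rows. Calls in either direction made up 5 of the 9, beside 24.9% of all rows. The 9 genes, and the gene lists used further below, were chosen with earlier results of these data known. Their shares beside those of all rows are therefore a description and no test of the genes as a set. The median log2 change of the 9 genes was -0.20 and that of all rows tested was 0.13. The libraries of the groups did not overlap for 8 of the 9 genes, and the same held for 70.3% of all rows. Of these 8, 3 were higher in Cdk8Tg, beside 49.2% of all rows, and 5 were lower, beside 21.1%. In bulk tissue, fewer cells of a type and less RNA per cell cannot be told apart.

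**Figure D1:**
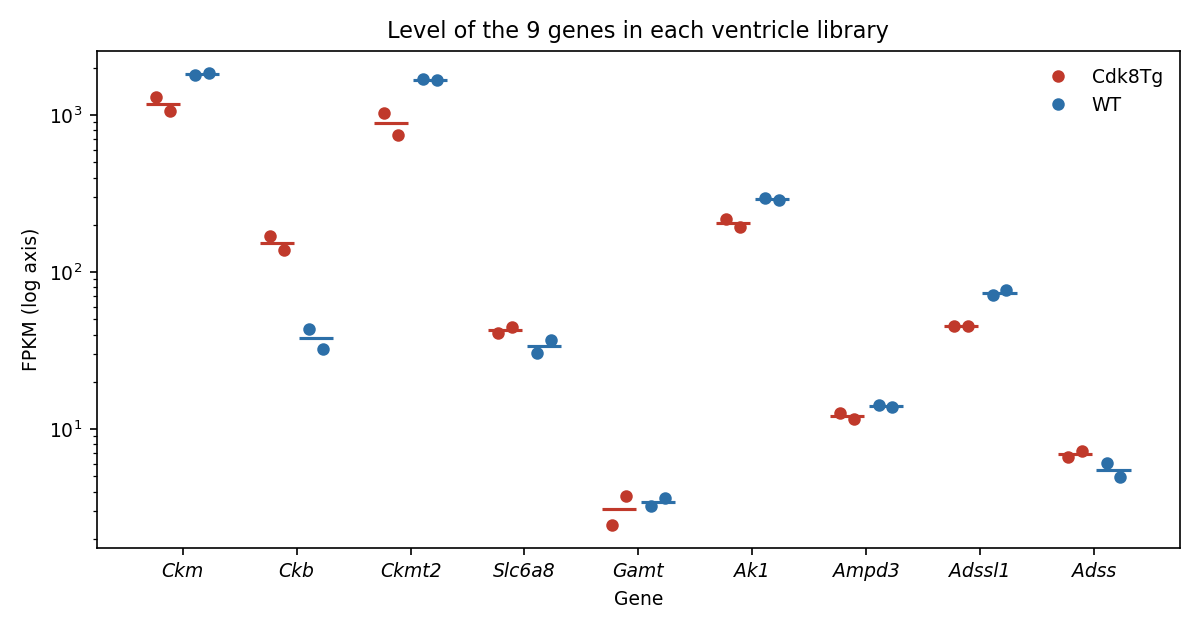
FPKM on a log axis for each of the 9 genes, with Cdk8Tg libraries as red points left of the WT libraries in blue, and the mean of each group as a line (n = 2 each). Ckb stands higher in both Cdk8Tg libraries, and Ckm, Ckmt2, Ak1 and Adssl1 stand lower in both.

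The creatine kinase genes moved in opposite directions. Ckm encodes the muscle subunit of the cytosolic enzyme, which in striated muscle also docks at the M-band of the sarcomere. Its locus is chr7:19411094-19421583 (mm10). It stood at 1297 and 1058 FPKM in Cdk8Tg ventricles, against 1801 and 1845 FPKM in WT ventricles. Both Cdk8Tg values lay below both WT values, and the Cdk8Tg pair differed more from each other than the WT pair did. The means were 1177 ± 170 FPKM in Cdk8Tg and 1823 ± 31.5 FPKM in WT (SD, n = 2 each), a log2 change of -0.64 ± 0.13 (SE; Benjamini-Hochberg adjusted p from limma = 0.026). Ckm held place 31 among the tested rows by mean FPKM, and its Cdk8Tg mean was 64.6% of its WT mean. With 1 library left out, its log2 change ranged from -0.78 without Cdk8Tg replicate 1 to -0.49 without Cdk8Tg replicate 2. The calls of such fits are given further below with their limit. An antisense transcript, A930016O22Rik, overlaps exons of Ckm. It stood at 43.6 and 34.6 FPKM in Cdk8Tg, against 61.1 and 63.4 FPKM in WT, and since the strand setting of the authors' counting is unstated in the sources used here, reads of this pair cannot be told apart.

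Ckb encodes the brain subunit, the cytosolic isoform of brain, smooth muscle and the embryonic heart. Its locus is chr12:111669355-111672338. It stood at 170 and 138 FPKM in Cdk8Tg ventricles, against 43.1 and 32.6 FPKM in WT ventricles. The lower Cdk8Tg value was more than 3 times the higher WT value. The means were 154 ± 22.9 FPKM in Cdk8Tg and 37.8 ± 7.41 FPKM in WT (SD, n = 2 each), 4.07-fold higher in Cdk8Tg, with a log2 change of 2.00 ± 0.17 (SE; Benjamini-Hochberg adjusted p from limma = 0.0041). This was place 39 among the 11888 rows ordered from the largest rise. Of the 31-base stretches of the Ckb transcript, 34.95% also occur in the annotated processed pseudogene Gm12892, which has no row of its own in the table, so how the authors' pipeline placed those reads is uncertain. Neuronal and Schwann cell markers were near 0 throughout. Snap25 and Syt1 were listed at 0 in all 4 libraries, 5 of the 7 markers stayed under 1 FPKM in each library, and the 7 summed to 6.86 and 5.83 FPKM in Cdk8Tg and to 6.05 and 6.03 FPKM in WT. Smooth muscle also expresses Ckb, and of its 5 markers 1 rose and 1 fell, beside 16.9% and 7.98% of all rows. Cnn1 stood at 48.1 and 80.5 FPKM in Cdk8Tg, against 1.34 and 1.70 FPKM in WT, and Smtn at 34.6 and 28.9 FPKM in Cdk8Tg, against 44.7 and 41.0 FPKM in WT. The log2 change of Ckb was 1.85 without Cdk8Tg replicate 1 and 2.15 without Cdk8Tg replicate 2. The smooth muscle marker sum was 437 and 738 FPKM in Cdk8Tg and 354 and 357 FPKM in WT. Acta2 made up most of it, at 317 and 513 FPKM in Cdk8Tg, against 266 and 268 FPKM in WT. Myh11 stood at 10.3 and 25.5 FPKM in Cdk8Tg, against 11.8 and 13.9 FPKM in WT. Tagln stood at 27.4 and 89.7 FPKM in Cdk8Tg, against 30.8 and 32.1 FPKM in WT. Myh11 and Tagln were thus below both WT libraries in Cdk8Tg replicate 1 and above both in Cdk8Tg replicate 2. The part of smooth muscle in the rise of Ckb was not tested.

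Ckmt2 encodes the sarcomeric mitochondrial creatine kinase, an octamer of the intermembrane space that couples ATP export to the charging of creatine. Its locus is chr13:91853387-91876885, where exons of the antisense gene 1700119I11Rik, which has no row, overlap it. It stood at 1035 and 744 FPKM in Cdk8Tg ventricles, against 1696 and 1665 FPKM in WT ventricles. Both Cdk8Tg values were lower than both WT values, with Cdk8Tg replicate 2 the lowest. The means were 889 ± 206 FPKM in Cdk8Tg and 1680 ± 21.8 FPKM in WT (SD, n = 2 each), a log2 change of -0.94 ± 0.17 (SE; Benjamini-Hochberg adjusted p from limma = 0.019). This was the largest fall among the 9 genes, to 52.9% of the WT mean, and place 246 among all rows ordered from the largest fall. With 1 library left out, the log2 change of Ckmt2 ranged from -1.17 without Cdk8Tg replicate 1 to -0.70 without Cdk8Tg replicate 2. Ckmt1, the mitochondrial isoform of most other tissues, did not reach the level needed for a test, at 0.106 and 0.384 FPKM in Cdk8Tg, against 0.0928 FPKM and a listed 0 in WT.

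The upstream regions of these genes are shown because the muscle and brain isoforms moved in opposite directions. Each is the stretch of 250 bases that ends just before the RefSeq start site on GRCm38.p6, read on the gene's own strand. That of Ckm is chr7:19410844-19411093 on the plus strand, that of Ckb is chr12:111672339-111672588 on the minus strand, and that of Ckmt2 is chr13:91876886-91877135 on the minus strand. Capitals mark matches, on either strand, to an E-box (CANNTG), a TATA box (TATAAA), a GC box (GGGCGG), a nuclear receptor half-site (AAGGTCA) or the MEF2 motif.
Ckm: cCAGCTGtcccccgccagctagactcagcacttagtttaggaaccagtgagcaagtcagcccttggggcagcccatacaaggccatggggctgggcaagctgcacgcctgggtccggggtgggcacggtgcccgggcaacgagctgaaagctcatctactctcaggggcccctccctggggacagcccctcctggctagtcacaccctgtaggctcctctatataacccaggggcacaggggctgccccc
Ckb: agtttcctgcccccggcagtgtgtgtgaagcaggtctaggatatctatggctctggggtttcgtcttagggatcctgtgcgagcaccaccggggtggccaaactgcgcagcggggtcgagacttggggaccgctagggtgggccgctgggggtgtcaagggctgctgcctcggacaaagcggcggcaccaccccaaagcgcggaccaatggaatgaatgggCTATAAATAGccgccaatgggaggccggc
Ckmt2: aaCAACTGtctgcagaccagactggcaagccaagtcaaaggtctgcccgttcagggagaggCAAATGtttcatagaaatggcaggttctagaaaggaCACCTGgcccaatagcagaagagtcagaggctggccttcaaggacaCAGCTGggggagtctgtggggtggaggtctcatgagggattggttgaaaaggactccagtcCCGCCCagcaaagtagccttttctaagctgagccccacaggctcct
Ckm held 1 E-box match in this stretch, and Ckmt2 held 4 E-box matches and 1 GC box match. The Ckm stretch also holds the letters TATATAA, which the search for exactly TATAAA left unmarked. A difference between Ckm and Ckb in a TATA box therefore cannot be read from these matches. Ckb held no E-box match, and its MEF2 match overlapped its TATA box match, with the first bases at positions -29 and -28 from the start site. Over 32851 RefSeq promoter windows of the same length, 66.2% held an E-box match, 12.4% a TATA box, 32.7% a GC box, 4.1% the half-site and 0.5% the MEF2 motif. The half-site matched none of the 3 stretches, which says only that these letters are not in them, and a match is not evidence that a factor binds.

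The balance of the creatine kinase isoforms differed between the groups. A ratio within a library does not depend on a scaling factor per library, though quantile normalization, which changes each level by its rank, does alter it. The ratio of Ckm to Ckb was 7.63 and 7.68 in the Cdk8Tg libraries, against 41.8 and 56.6 in the WT libraries. Both Cdk8Tg ratios lay below both WT ratios, a difference of -2.67 in the mean log2 ratio. Ckb made up 6.80% and 7.10% of the summed FPKM of Ckm, Ckb and Ckmt2 in Cdk8Tg, against 1.22% and 0.92% in WT. The ratio of Ckmt2 to Ckm was 0.798 and 0.704 in Cdk8Tg, against 0.942 and 0.902 in WT, again without overlap, and differed by -0.30 in the mean log2 ratio. The rise of Ckb was small beside the level that Ckm and Ckmt2 lost. The 3 genes summed to 2502 and 1939 FPKM in Cdk8Tg and to 3539 and 3543 FPKM in WT, which was 0.558% and 0.440% of all FPKM in Cdk8Tg and 0.693% and 0.697% in WT. With 2 libraries against 2, an exact permutation test cannot give a two-sided p below 0.333, so these ratios are given without a test.

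**Figure D2:**
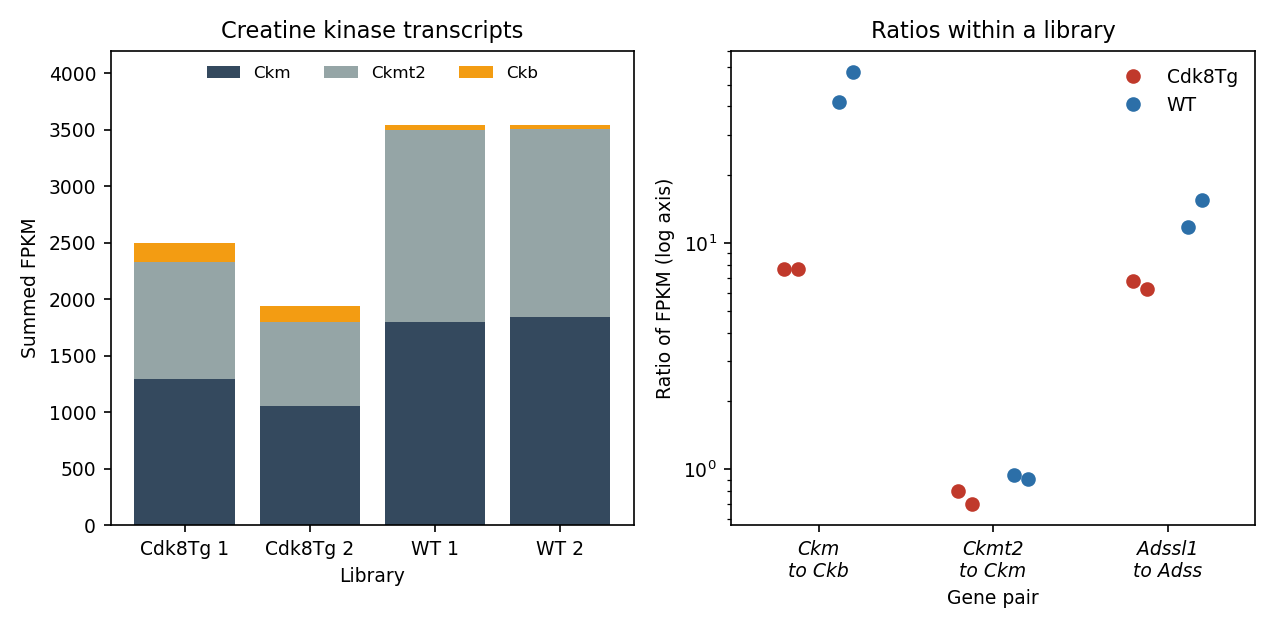
Left, FPKM of Ckm, Ckmt2 and Ckb stacked for each library, on an axis that starts at 0. Right, the ratio of FPKM within each library for 3 gene pairs on a log axis, with Cdk8Tg in red left of WT in blue. The Cdk8Tg bars end at 2502 and 1939 FPKM and the WT bars at 3539 and 3543 FPKM, and the Cdk8Tg points lie below the WT points for all 3 pairs.

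Creatine reaches the heart from the blood, since its synthesis takes place mainly in kidney, liver and pancreas. Slc6a8, the creatine transporter of the plasma membrane, stood at 41.1 and 44.5 FPKM in Cdk8Tg ventricles, against 30.6 and 37.0 FPKM in WT ventricles. Both Cdk8Tg values were higher than both WT values, yet the gap between the groups was narrower than the spread within WT. The log2 change was 0.34 with a 95% confidence interval of 0.05 to 0.63, and it did not pass after adjustment (limma, unadjusted p = 0.029, Benjamini-Hochberg adjusted p = 0.085). Gamt, the methyltransferase that makes creatine from guanidinoacetate, was the lowest of the 9 genes. It stood at 2.44 and 3.73 FPKM in Cdk8Tg, against 3.24 and 3.65 FPKM in WT, and the groups overlapped. Its log2 change was -0.14 with a 95% confidence interval of -0.58 to 0.30 (limma, Benjamini-Hochberg adjusted p = 0.58). These values rested on an estimated 26 and 38 fragments in Cdk8Tg and 39 and 45 fragments in WT, and the authors' locus for Gamt spans 672333 bases, which reaches across other genes.

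Of 8 genes fixed as creatine kinases, creatine transporters and creatine synthesis enzymes, 7 were tested. Of these 2 rose and 2 fell, beside 16.9% and 7.98% of all rows, with a median log2 change of -0.14. The second rise was Slc16a12, a monocarboxylate transporter family member that carries creatine. It stood at 3.61 and 3.88 FPKM in Cdk8Tg, against 1.49 and 1.38 FPKM in WT, with a log2 change of 0.96 (limma, Benjamini-Hochberg adjusted p = 0.0077). Gatm, which makes the guanidinoacetate that Gamt methylates, stood at 2.35 and 2.09 FPKM in Cdk8Tg, against 3.16 and 2.73 FPKM in WT, with a log2 change of -0.29 that did not pass (limma, Benjamini-Hochberg adjusted p = 0.13).

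Ak1 encodes the cytosolic adenylate kinase of striated muscle and brain, from the locus chr2:32621758-32635058. It stood at 218 and 193 FPKM in Cdk8Tg ventricles, against 298 and 288 FPKM in WT ventricles. Both Cdk8Tg values were lower than both WT values. The means were 205 ± 17.5 FPKM in Cdk8Tg and 293 ± 7.11 FPKM in WT (SD, n = 2 each), a log2 change of -0.51 ± 0.10 (SE; Benjamini-Hochberg adjusted p from limma = 0.020). With 1 library left out, the log2 change of Ak1 ranged from -0.60 without Cdk8Tg replicate 1 to -0.42 without Cdk8Tg replicate 2. Of 10 symbols listed as adenylate kinases, 7 had a row and 4 were tested. Ak1 was the 1 call among them, beside 24.9% of all rows called. The matrix enzymes Ak3 and Ak4 had log2 changes of 0.01 and -0.04 (limma, Benjamini-Hochberg adjusted p = 0.92 and 0.83).

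Ampd3 encodes the AMP deaminase isoform known from red blood cells and also made in heart, from the locus chr7:110768206-110812408. It stood at 12.6 and 11.6 FPKM in Cdk8Tg ventricles, against 14.2 and 13.9 FPKM in WT ventricles. The Cdk8Tg values were lower without overlap, but the difference did not pass, with a log2 change of -0.20 and a 95% confidence interval of -0.42 to 0.01 (limma, Benjamini-Hochberg adjusted p = 0.14). The erythroid markers with a row, 5 of 9 listed, summed to 1311 and 985 FPKM in Cdk8Tg and to 1176 and 1873 FPKM in WT, and the part of red blood cells in the level of Ampd3 was not tested. Exons of Ampd3 overlap those of Rnf141 on the opposite strand, at 15.3 and 15.1 FPKM in Cdk8Tg, against 14.6 and 13.3 FPKM in WT. Ampd1, the skeletal muscle isoform, was at or near 0 in all 4 libraries, at most 0.0357 FPKM. Ampd2, the isoform of most other tissues, stood at 4.68 and 3.79 FPKM in Cdk8Tg, against 3.70 and 2.60 FPKM in WT, with a log2 change of 0.34 that did not pass (limma, Benjamini-Hochberg adjusted p = 0.19).

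Of the adenylosuccinate synthetase genes, the muscle isoform fell and the general isoform did not pass the test. Adssl1, the isoform of striated muscle at chr12:112620047-112641355, stood at 45.1 and 45.6 FPKM in Cdk8Tg ventricles, against 71.5 and 76.4 FPKM in WT ventricles. The groups were far apart relative to the spread within each. The means were 45.3 ± 0.359 FPKM in Cdk8Tg and 74.0 ± 3.50 FPKM in WT (SD, n = 2 each), a log2 change of -0.69 ± 0.08 (SE; Benjamini-Hochberg adjusted p from limma = 0.0073). With 1 library left out, the log2 change of Adssl1 ranged from -0.74 without WT replicate 1 to -0.65 without WT replicate 2. Adss, the isoform of most tissues at chr1:177763178-177796509, stood at 6.65 and 7.26 FPKM in Cdk8Tg, against 6.10 and 4.93 FPKM in WT. Its values were higher in Cdk8Tg without overlap and did not pass, with a log2 change of 0.29 and a 95% confidence interval of -0.01 to 0.60 (limma, Benjamini-Hochberg adjusted p = 0.13). The ratio of Adssl1 to Adss was 6.78 and 6.28 in Cdk8Tg, against 11.7 and 15.5 in WT, and differed by -1.05 in the mean log2 ratio. Adsl, the lyase that follows both, stood at 16.6 and 14.2 FPKM in Cdk8Tg, against 21.7 and 18.1 FPKM in WT, with a log2 change of -0.35 that did not pass (limma, Benjamini-Hochberg adjusted p = 0.096). Of the 5 tested genes of the purine nucleotide cycle, Adssl1 was the 1 call, beside 24.9% of all rows called. After median-of-ratios scaling, compared further below, 0 rose and 2 fell, Adssl1 and Adsl, beside 7.96% and 11.7% of all rows.

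The upstream stretches of this pair are shown in the same way, as the muscle and general isoforms of 1 enzyme, with capitals for the same motifs. That of Adssl1 is chr12:112619797-112620046 on the plus strand and that of Adss is chr1:177796510-177796759 on the minus strand.
Adssl1: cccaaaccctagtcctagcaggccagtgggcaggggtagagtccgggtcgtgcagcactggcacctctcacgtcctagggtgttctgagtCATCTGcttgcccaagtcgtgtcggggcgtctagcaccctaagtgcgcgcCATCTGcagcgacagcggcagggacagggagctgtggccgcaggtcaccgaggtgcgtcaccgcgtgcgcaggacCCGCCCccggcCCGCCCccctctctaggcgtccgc
Adss: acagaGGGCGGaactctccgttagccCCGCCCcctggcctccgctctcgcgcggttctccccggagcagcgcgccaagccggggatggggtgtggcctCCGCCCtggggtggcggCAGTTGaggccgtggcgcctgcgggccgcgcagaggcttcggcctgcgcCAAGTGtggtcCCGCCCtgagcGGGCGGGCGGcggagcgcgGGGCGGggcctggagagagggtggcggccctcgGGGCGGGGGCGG
Adssl1 held 2 E-box and 2 GC box matches, and Adss held 2 E-box and 9 GC box matches. Neither held a match to the TATA box, the half-site or the MEF2 motif. Windows were found for 8 of the 9 genes, all but Slc6a8.

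Directions of the 5 called genes were the same on 4 scales, but sizes and calls varied. The deposited scale put the median of all rows at 0.13, median-of-ratios scaling at 0.00, quantile normalization at 0.01 and an equal FPKM sum per library at 0.30. Across these, Ckb changed by 1.86 to 2.20, Adssl1 by -0.84 to -0.50 and Ak1 by -0.66 to -0.31, all with a call. Ckm and Ckmt2 changed by -0.24 and -0.54 with quantile normalization and lost their calls there (limma, Benjamini-Hochberg adjusted p = 0.070 and 0.053). With an equal FPKM sum Slc6a8 and Adss rose by 0.53 and 0.46 (limma, Benjamini-Hochberg adjusted p = 0.020 and 0.031). Ampd3, without a call on any scale, changed by -0.34 with median-of-ratios scaling, -0.32 with quantile normalization and -0.02 with an equal FPKM sum (limma, Benjamini-Hochberg adjusted p = 0.053, 0.067 and 0.85). The authors' deposited table, which compares the groups with Cuffdiff, called the same 5 genes at q under 0.05 and in the same directions, beside 14.0% of its 12393 tested genes, 5.53% higher and 8.43% lower. After median-of-ratios scaling, where limma called the same 5, the shares of all rows were 7.96% higher and 11.7% lower. In the authors' deposited table Ckb stood at 175 FPKM in Cdk8Tg and 48.0 FPKM in WT (q = 8.6e-04), and Ckmt2 at 1015 FPKM in Cdk8Tg and 2134 FPKM in WT (q = 8.6e-04). A fit that leaves out 1 library takes its spread from the other group alone, and the spread differed between the groups, with an SD of 206 FPKM in Cdk8Tg and 21.8 FPKM in WT for Ckmt2, so kept and lost calls there are no measure of stability. In such fits 5 of the 5 calls remained with either Cdk8Tg library left out, those of Ckb and Adssl1 with WT replicate 1 left out, and that of Ckb with WT replicate 2 left out. With no filter on low values, where 23847 rows enter the adjustment, none of the 5 passed (limma, Benjamini-Hochberg adjusted p of 0.064 for Adssl1 and 0.096 for Ckb to 0.26 for Ckm).

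**Figure D3:**
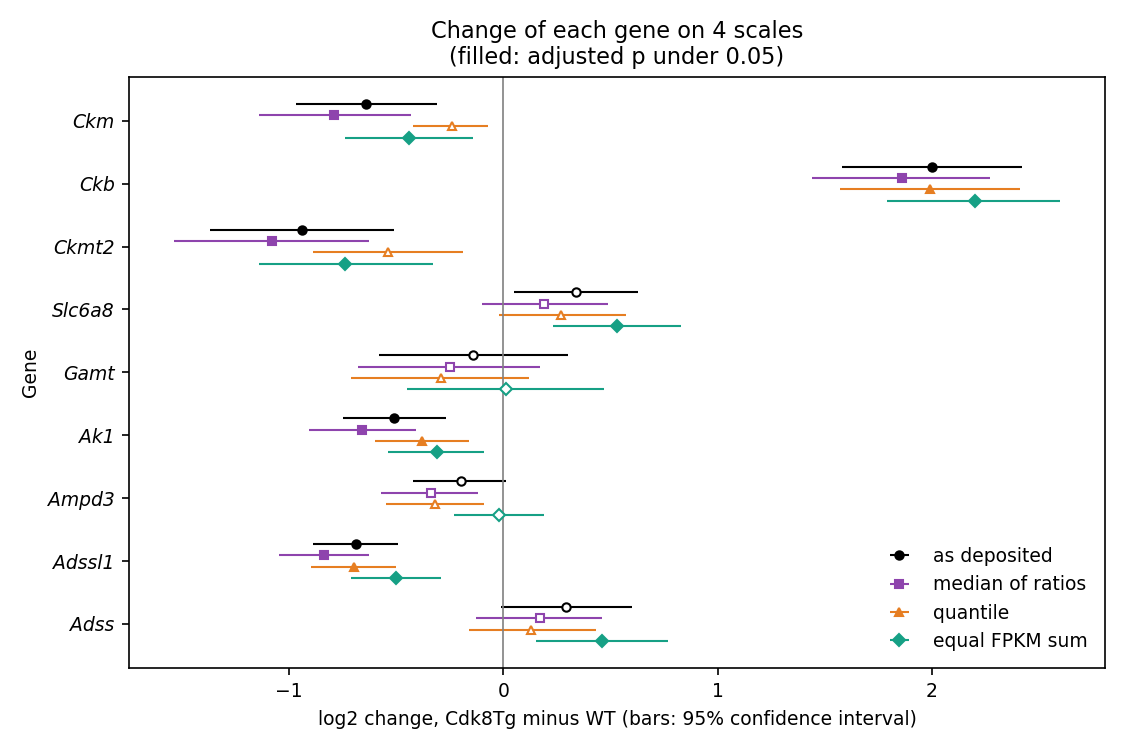
Log2 change, Cdk8Tg minus WT, of the 9 genes with 95% confidence intervals from limma on 4 scales of the FPKM values, filled where the adjusted p is under 0.05. Ckb, Ak1 and Adssl1 are filled on all 4 scales, and Ckm and Ckmt2 on all but the quantile scale.

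Levels relative to heart muscle transcripts differed less between the groups for the 4 genes that fell. The sum of the 8 cardiomyocyte markers in Cdk8Tg was 66.9% of that in WT, a difference of -0.58 in mean log2, so each gene was also expressed per 1000 FPKM of that sum, a scale added once the values were known. Ckm then stood at 33.4 and 28.6 in Cdk8Tg, against 31.1 and 33.3 in WT, and the groups overlapped. Ak1 stood at 5.61 and 5.22 in Cdk8Tg, against 5.15 and 5.19 in WT. Adssl1 stood at 1.16 and 1.23 in Cdk8Tg, against 1.24 and 1.38 in WT, a difference of -0.13 in mean log2. Ckmt2 was still lower without overlap, at 26.7 and 20.1 in Cdk8Tg, against 29.3 and 30.0 in WT, a difference of -0.36. Ckb was at 4.38 and 3.72 in Cdk8Tg, against 0.744 and 0.588 in WT, a difference of 2.61. Slc6a8 and Adss were higher in Cdk8Tg by 0.93 and 0.92. Of the 8 markers, 6 fell themselves, among them Tnni3, the cardiac troponin I gene, at 2016 and 1890 FPKM in Cdk8Tg and 6610 and 6487 FPKM in WT, and their part in these results was not tested.

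**Figure D4:**
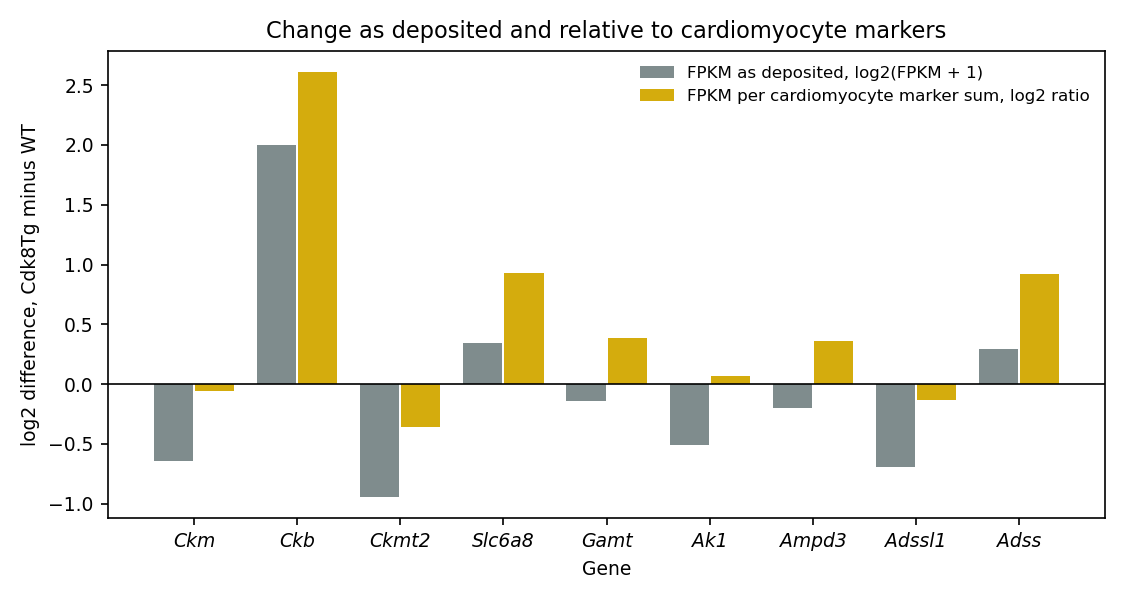
Log2 difference, Cdk8Tg minus WT, of each gene on the deposited scale (grey) and as the ratio to the summed cardiomyocyte markers of the same library (yellow), on an axis that includes 0. The Ckm bars stand at -0.64 and -0.06, the Ak1 bars at -0.51 and 0.07, and the Ckb bars are the highest at 2.00 and 2.61.

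Transcripts that move ADP and ATP across the mitochondrial membranes were compared as a list, since Ckmt2 works beside them. Of 9 tested genes for adenine nucleotide carriers, the phosphate carrier and porins, 4 fell and 0 rose, beside 7.98% and 16.9% of all rows, with a median log2 change of -0.12. The counts were the same after median-of-ratios scaling, beside 11.7% falls and 7.96% rises of all rows. Slc25a4, the ADP/ATP carrier of heart and skeletal muscle, stood at 3394 and 3015 FPKM in Cdk8Tg, against 6124 and 5953 FPKM in WT, a log2 change of -0.92 (limma, Benjamini-Hochberg adjusted p = 0.011). Slc25a5, the carrier isoform of most tissues, stood at 373 and 394 FPKM in Cdk8Tg, against 338 and 303 FPKM in WT, with a log2 change of 0.26 that did not pass (limma, Benjamini-Hochberg adjusted p = 0.10). Vdac1, a porin of the outer membrane, changed by -0.51 and Slc25a3, the phosphate carrier, by -0.50 (limma, Benjamini-Hochberg adjusted p = 0.023 and 0.037). With quantile normalization Slc25a4, Vdac1 and Slc25a3 lost their calls, and with an equal FPKM sum Slc25a3 did.

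AMP-activated protein kinase senses the AMP that adenylate kinase makes. Of 12 genes for its subunits, upstream kinases and partners of those kinases, 12 were tested. Of these 3 rose and 1 fell, beside 16.9% and 7.98% of all rows, with a median log2 change of 0.14. After median-of-ratios scaling 2 rose and 1 fell, beside 7.96% and 11.7% of all rows. The regulatory gamma subunit Prkag2 stood at 17.7 and 18 FPKM in Cdk8Tg, against 8.62 and 8.26 FPKM in WT, a log2 change of 1 (limma, Benjamini-Hochberg adjusted p = 0.0041). Prkag3, the gamma subunit of skeletal muscle, stood at 3.44 and 4.75 FPKM in Cdk8Tg, against 0.642 and 0.739 FPKM in WT, a log2 change of 1.58 (limma, Benjamini-Hochberg adjusted p = 0.0062). It passed the minimum of 1 FPKM only through the Cdk8Tg libraries, and its log2 change was 2.39 with a pseudocount of 0.1 and 0.67 with a pseudocount of 5. Stk11, the upstream kinase LKB1, changed by -0.32 (limma, Benjamini-Hochberg adjusted p = 0.036), a call lost with an equal FPKM sum, without a variance trend, with a replicate block and in the authors' deposited table (q = 0.94). Prkag1, the most abundant gamma subunit here, stood at 53.2 and 50.5 FPKM in Cdk8Tg, against 58.6 and 56.2 FPKM in WT, and did not pass (limma, Benjamini-Hochberg adjusted p = 0.23).

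Genes listed under nucleotidases and ectonucleotidases held calls in both directions. Of the 14 tested, 6 rose and 2 fell, beside 16.9% and 7.98% of all rows. After median-of-ratios scaling 5 rose and 2 fell, beside 7.96% and 11.7% of all rows. The median log2 change of the 14 was 0.12 and lay near the 0.13 of all rows. Nt5e, the cell surface enzyme CD73 that makes adenosine from AMP, stood at 16.2 and 15.9 FPKM in Cdk8Tg, against 9.92 and 8.15 FPKM in WT, a log2 change of 0.77 (limma, Benjamini-Hochberg adjusted p = 0.012). Nt5dc1 rose by 0.61, and Entpd6 changed by -0.80 (limma, Benjamini-Hochberg adjusted p = 0.013 and 0.011), and Nt5dc1 had no call in the authors' deposited table (q = 0.083). Nt5c1a, the cytosolic AMP nucleotidase of heart and skeletal muscle, stood at 9.70 and 9.44 FPKM in Cdk8Tg, against 10.1 and 10.6 FPKM in WT, with a log2 change of -0.10 that did not pass (limma, Benjamini-Hochberg adjusted p = 0.40). Nt5e is also made by fibroblasts and endothelium. Of 5 fibroblast markers 4 rose and 0 fell, and of 5 endothelial markers 0 rose and 0 fell, beside 16.9% and 7.98% of all rows. The endothelial markers summed to 204 and 182 FPKM in Cdk8Tg and to 214 and 210 FPKM in WT. The part of these cell types in the rise of Nt5e was not tested.

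Purine synthesis and salvage went both ways. Of 8 genes of de novo synthesis up to IMP, 2 rose and 0 fell, beside 16.9% and 7.98% of all rows. Their median log2 change was 0.03. After median-of-ratios scaling 1 rose and 2 fell, beside 7.96% and 11.7% of all rows. Prps2, a ribose-phosphate pyrophosphokinase, stood at 11.8 and 12.8 FPKM in Cdk8Tg, against 5 and 4.69 FPKM in WT, a log2 change of 1.19 (limma, Benjamini-Hochberg adjusted p = 0.0038). Atic, which closes the purine ring, rose by 0.46 (limma, Benjamini-Hochberg adjusted p = 0.023), a call lost with median-of-ratios scaling, with quantile normalization and in the authors' deposited table (q = 0.27). In salvage, 1 of 7 tested genes rose and 1 fell, beside 16.9% and 7.98% of all rows. Aprt, which turns adenine into AMP, stood at 24.0 and 24.8 FPKM in Cdk8Tg, against 16.6 and 17.4 FPKM in WT, and Adk, which turns adenosine into AMP, at 77.4 and 83.5 FPKM in Cdk8Tg, against 108 and 115 FPKM in WT. Their log2 changes were 0.50 and -0.47 (limma, Benjamini-Hochberg adjusted p = 0.015 and 0.020). Adk lost its call with an equal FPKM sum, and Aprt had none in the authors' deposited table (q = 0.33).

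Guanine nucleotide enzymes held 0 rises and 2 falls among 6 tested genes, beside 16.9% and 7.98% of all rows, with a median log2 change of -0.14. After median-of-ratios scaling they held 0 rises and 3 falls, beside 7.96% and 11.7% of all rows. Guk1, guanylate kinase, changed by -0.63 and Gmpr, which turns GMP back into IMP, by -0.56 (limma, Benjamini-Hochberg adjusted p = 0.0079 and 0.022). Among 6 tested nucleoside diphosphate kinases, 2 rose and 1 fell, beside the same shares of 16.9% and 7.98%, with a median of 0.19. After median-of-ratios scaling 1 rose and 1 fell, beside 7.96% and 11.7%. Nme2, the most abundant, stood at 609 and 620 FPKM in Cdk8Tg, against 847 and 798 FPKM in WT, a log2 change of -0.42, and Nme1 stood at 32.4 and 37.5 FPKM in Cdk8Tg, against 22.0 and 15.5 FPKM in WT, a log2 change of 0.88 (limma, Benjamini-Hochberg adjusted p = 0.029 and 0.023). Nme2 was at -0.00 with quantile normalization and lost its call there, with an equal FPKM sum and with a replicate block. Nme3 rose by 0.40, a call lost with median-of-ratios scaling, with quantile normalization and in the authors' deposited table (q = 0.84). Nme1 and Nme2 are close neighbours in sequence, so the split of reads between them is uncertain. Of 6 tested adenosine receptors and nucleoside transporters, 0 rose and 1 fell, beside 16.9% and 7.98% of all rows, with a median of -0.10. The fall was Slc28a2, a sodium-coupled purine nucleoside transporter, at -0.33 (limma, Benjamini-Hochberg adjusted p = 0.045). That call was lost with an equal FPKM sum, without a variance trend and with a replicate block.

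Over the 11 lists together, 74 genes beyond the 9 were tested, of which 15 rose and 12 fell, beside 16.9% and 7.98% of all rows. Of them 20 were named for a call. Not all of these calls were kept when 1 library was left out. Such a fit takes its spread from the other group alone, so this is no measure of stability. The authors' deposited table called 15 of the 20, all but Aprt, Atic, Nme3, Nt5dc1 and Stk11. Median-of-ratios scaling kept 18 of the 20, an equal FPKM sum 15 and quantile normalization 14. With no filter on low values only 2 of the 20 were kept.

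**Figure D5:**
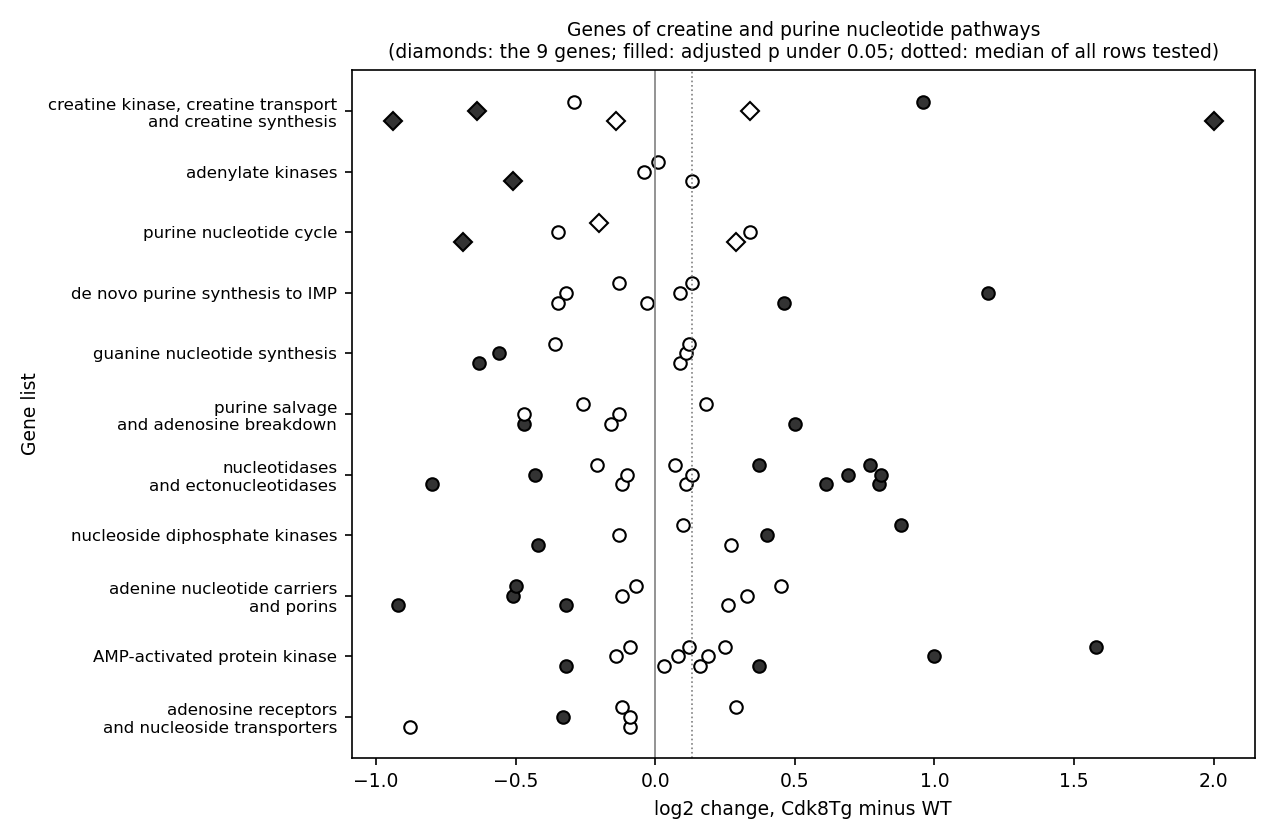
Log2 change, Cdk8Tg minus WT, of every tested gene in 11 lists of creatine and purine nucleotide genes. Diamonds are the 9 genes and circles the others, filled where the adjusted p is under 0.05, and the dotted line is the median of all rows tested, 0.13. Ckb at 2.00 and Prkag3 at 1.58 lie farthest to the right, and Ckmt2 at -0.94 and Slc25a4 at -0.92 farthest to the left.

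Genes with the most similar pattern over the 4 libraries were found by the root-mean-square distance between log2(FPKM + 1) values, each row centred on its own mean. For Ckb, the largest rise among the 9, the 5 nearest were Fbn2, Ccnd2, Hist1h2bc, Pdk3 and Phlda3, at distances of 0.079 to 0.161. Ccnd2, the nearest of the more abundant ones, stood at 84.1 and 77.4 FPKM in Cdk8Tg, against 26.1 and 19.4 FPKM in WT. For Ckmt2, the largest fall, the 5 nearest were Dbp, Fndc5, Tppp, Extl1 and Acy1, at distances of 0.027 to 0.054. Fndc5 stood at 89.6 and 64.5 FPKM in Cdk8Tg, against 143 and 149 FPKM in WT, so that Cdk8Tg replicate 2 was the lowest library, as for Ckmt2. With 4 libraries in 2 groups many genes share such a pattern.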

How the data were processed

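RNA from ventricles was measured in 2 Cdk8Tg and 2 WT libraries, assigned to groups by title. Stranded TruSeq libraries were made from poly(A) RNA, per the labels' protocols. TopHat (1.0.0) alignment to mm10 preceded Cufflinks and Cuffdiff, per the submitters' processing notes. Other versions, the annotation and the counting's strand setting are not stated there.

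One deposited table gives FPKM per library, made by the authors, which summed to 448495 and 440324 in Cdk8Tg and to 510844 and 508247 in WT. The other is the authors' deposited Cuffdiff table, with FPKM per group, a p-value and a q-value. Its FPKM were 1.14 times the library mean in Cdk8Tg and 1.27 times in WT (medians of 11016 genes). Its fold change column was set aside for its spreadsheet errors, and changes were computed from its FPKM.

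Because FPKM cannot enter a count test, log2(FPKM + 1) was fitted with limma 3.58.1 (R 4.3.3), trended variance, no covariates and 2 residual degrees of freedom. Rows with a mean of 1 FPKM or more were tested, and calls needed a Benjamini-Hochberg adjusted p under 0.05. On this scale fold changes of low genes are understated. The code was tested on simulated data. Depth was inferred from FPKM values below 0.1 in genes whose only transcript exceeds 800 bases. Genome positions are mm10 (GRCm38), with RefSeq and GENCODE annotation. Named genes were the 9, Cdk8, the calls of each list (the 3 of smallest p where there were more) and the nearest patterns. Any other gene was picked with its values in view. The 9 genes and the lists were chosen with earlier results of these data known. Alternatives covered the pseudocount (0.1, 5), the FPKM minimum (none, 5), 3 scalings, the variance model, a replicate block, each library left out, a minimum log2 change of 1 and the authors' calls.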

Additional observations from a re-analysis of the deposited data

How the results depend on the processing

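Of the 5 calls among the 9 genes, 5 were kept with other pseudocounts, median-of-ratios scaling, an equal FPKM sum, a minimum of 5 FPKM, other variance models and the authors' deposited table, and the causes of the differences below were not tested. Against 2009 rises and 949 falls over all rows, there were 170 and 109 with no filter, where 23847 rows enter the adjustment, 210 and 204 with a minimum log2 change of 1, and 145 to 1531 and 142 to 849 when 1 library was left out, with the lone sample assumed to vary like the other group. Rises alone numbered 946 with median-of-ratios scaling, 992 with quantile normalization, 4899 with an equal FPKM sum and 685 in the authors' deposited table. Among the 9, 1 rise and 4 falls became 0 and 0 with no filter. Rises became 3 with an equal FPKM sum. Falls became 2 with quantile normalization, 0 with a minimum log2 change of 1, and 0 to 4 with a library left out. Over the 11 lists, 16 rises and 16 falls became 1 and 1 with no filter, 28 and 9 with an equal FPKM sum, 4 and 0 with a minimum log2 change of 1, and 4 to 14 and 0 to 12 with a library left out, and the authors' deposited table had 9 rises. Gamt, at -0.14, changed sign to 0.01 with an equal FPKM sum and ranged from -0.37 without Cdk8Tg replicate 2 to 0.09 without Cdk8Tg replicate 1. Per cardiomyocyte marker sum, Gamt was at 0.39, Ak1 at 0.07 and Ampd3 at 0.36.

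Replicate numbers did not pair the libraries, with a correlation of -0.0256 across genes between the deviations of the libraries numbered 1. With the replicate number as a block, 1855 rows rose and 970 fell, and the 5 calls among the 9 genes were kept. The block ended 3 of the 20 named calls of the other listed genes, Nme2, Slc28a2 and Stk11 (limma, Benjamini-Hochberg adjusted p = 0.056, 0.061 and 0.051). With 2 libraries a group, intervals are wide, and Gamt rested on under 50 estimated fragments per library.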
